A study of Mus musculus with 20 samples.

Results

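Enzymes of cholesterol synthesis were described by 8 genes, Hmgcs1, Idi1, Fdps, Fdft1, Sqle, Lss, Cyp51 and Dhcr7, taken by symbol from the 23402 rows of a single expression table. All 8 had a row, and all 8 were among the 12788 rows with a mean of at least 0.5 FPKM over the 20 libraries, which were the rows tested. FPKM divides a gene's fragments by its length and by the library's mapped total, which allows levels of different genes to be set side by side. RNA came from subcutaneous mouse tumours grown from MC38, a cell line derived from a colon adenocarcinoma. Tumours of 10 libraries had received ATBx around the tumour (P.T.ATBx), and those of the other 10 had received vehicle (Control). ATBx is a common short form for antibiotic treatment. The labels give no agent, dose, schedule, mouse strain, age or sex, and they do not tie each library to an animal of its own, so p-values measure the spread between libraries, which may be partly technical. The title of the study concerns tumour microbes and interferon signalling, and the sterol pathway is not named in it.

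Cholesterol is built from acetyl-CoA through the mevalonate pathway, which also supplies the isoprenoid groups attached to proteins, and then through squalene and a series of sterols. When the sterol content of the endoplasmic reticulum is low, the escort protein Scap carries SREBP factors, encoded by Srebf1 and Srebf2, to the Golgi, where they are cleaved. The freed fragments enter the nucleus and raise transcription of the synthesis enzymes. Proliferating tumour cells use the pathway for membranes and isoprenoids, while macrophages in a tumour take up and export sterols.

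By RefSeq for GRCm38.p6 the genes lie apart, Hmgcs1 at chr13:119690351-119708260, Idi1 at chr13:8885606-8892396, Fdps at chr3:89093588-89101967, Fdft1 at chr14:63145150-63181687, Sqle at chr15:59315092-59331193, Lss at chr10:76531565-76557139, Cyp51 at chr5:4080674-4104697 and Dhcr7 at chr7:143823167-143848410. Promoters are shown because the enzymes are known as joint targets of SREBP factors, which bind together with factors at CCAAT and GC boxes. The windows run from 250 bases before to 50 bases after the annotated start and were read from RefSeq for GRCm38.p6, the build of the files. Of the 8 genes, 5 had an entry (Hmgcs1, Idi1, Lss, Cyp51 and Dhcr7), with 7 windows between them. In the 3 windows printed here, chr13:119690101-119690400 (plus strand) for Hmgcs1, chr13:8885356-8885655 (plus strand) for Idi1 and chr5:4104648-4104947 (minus strand) for Cyp51, capitals mark a sterol regulatory element written as TCACNCCAC and CCAAT boxes, read on either strand.
Hmgcs1: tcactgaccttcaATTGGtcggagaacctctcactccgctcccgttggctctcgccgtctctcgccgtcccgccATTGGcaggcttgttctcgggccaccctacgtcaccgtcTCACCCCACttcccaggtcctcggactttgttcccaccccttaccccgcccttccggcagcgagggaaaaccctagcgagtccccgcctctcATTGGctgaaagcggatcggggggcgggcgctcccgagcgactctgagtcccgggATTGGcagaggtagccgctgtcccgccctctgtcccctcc
Idi1: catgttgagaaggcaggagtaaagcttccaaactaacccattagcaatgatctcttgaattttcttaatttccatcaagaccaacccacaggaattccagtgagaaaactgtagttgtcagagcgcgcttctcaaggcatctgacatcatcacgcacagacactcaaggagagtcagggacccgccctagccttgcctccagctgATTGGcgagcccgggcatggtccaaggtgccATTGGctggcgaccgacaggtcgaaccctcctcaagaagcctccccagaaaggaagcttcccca
Cyp51: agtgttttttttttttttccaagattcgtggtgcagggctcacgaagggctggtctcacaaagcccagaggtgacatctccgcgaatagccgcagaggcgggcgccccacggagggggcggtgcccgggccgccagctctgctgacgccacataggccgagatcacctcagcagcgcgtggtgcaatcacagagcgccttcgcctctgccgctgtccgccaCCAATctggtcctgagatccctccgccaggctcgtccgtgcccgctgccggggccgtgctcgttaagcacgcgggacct
The sterol element, searched as TCACNCCAC or its reverse GTGGNGTGA, occurred in 1 of the 5 genes, Hmgcs1, where it began 137 bases before the start. It occurred in 1.24% of the 32851 annotated windows of the same 300 bases. CCAAT or its reverse ATTGG occurred in 5 of the 7 windows and in all 5 genes, and in 37.4% of all windows. GGGCGG or its reverse CCGCCC occurred in 6 of the 7 windows and in all 5 genes, and in 35.7% of all windows. A match is a description of letters in the window and not a binding site.

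Summed FPKM per library ran from 556770 to 752782, rows above 0 from 15527 to 16345, and relative depth, from the spacing of low values, over a 1.48-fold range. Read totals are unknown. In the correlation of each library with the others, 2 libraries stood apart, Control 1 and Control 3. Of 10 epithelial markers, the intestinal genes Cdx2, Cdx1 and Vil1 were at or near 0. Cdx2 was listed at 0 in every library, and Cdx1 and Vil1 stayed at or below 0.113 and 0.204 FPKM. The other 7, Lgals4 among them, passed the filter of 0.5 FPKM. The summed level of these 7 ran from 13.0 to 56.7 FPKM in P.T.ATBx and from 4.63 to 184 FPKM in Control. In bulk tissue, fewer cells of a type and less RNA per cell cannot be told apart.

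None of the 8 enzymes passed the adjusted threshold of 0.05 between P.T.ATBx and Control tumours, and the ranges of the groups overlapped for every one of them. By limma's moderated linear model, 0.845% of all tested rows were called (108 of 12788; 0.461% higher and 0.383% lower in P.T.ATBx), and 0 of the 8 enzymes. At an unadjusted p under 0.05 there were 2 enzymes, Fdps and Dhcr7, both with the lower mean in P.T.ATBx, against 13.6% of all tested rows in either direction and 6.08% in the lower direction. Fold changes are differences of group means of log2(FPKM + 1), with P.T.ATBx taken first. Their median over the enzymes was -0.05, with 7 values below 0 and 1 above, while the median over all tested rows was 0.00 and 48.5% of them were below 0. Summed over the 8 enzymes, the lowest, median and highest library had 234, 253 and 375 FPKM in P.T.ATBx, against 244, 273 and 362 FPKM in Control.

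**Figure D1:**
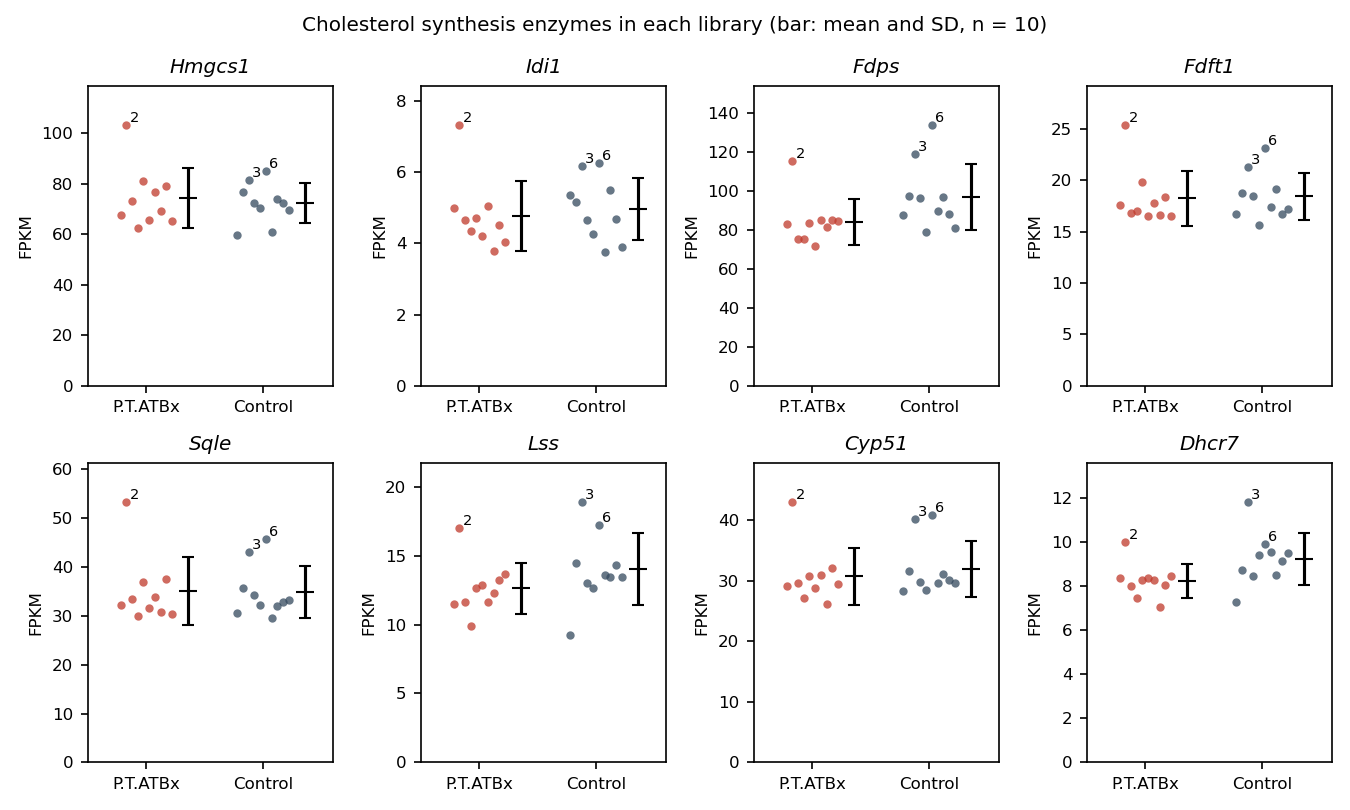
FPKM of each enzyme in each library, on a separate linear axis per gene, with P.T.ATBx at the left and Control at the right of each panel; points are libraries and bars show the mean and SD (n = 10 each). The groups overlap for all 8 genes, and P.T.ATBx 2 is the highest P.T.ATBx library in every panel.

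In the mevalonate segment, Hmgcs1, which makes HMG-CoA, the precursor of mevalonate, had 62.5, 71.3 and 103 FPKM in the lowest, median and highest P.T.ATBx library, against 59.7, 72.5 and 85.0 FPKM in Control. The Control median divided the P.T.ATBx libraries evenly, with 5 below and 5 above. The log2 fold change was 0.03 (SE 0.08, 95% interval -0.13 to 0.20, limma adjusted p = 0.889). Idi1, which converts isopentenyl diphosphate to its isomer dimethylallyl diphosphate, had 3.80, 4.58 and 7.32 FPKM in the lowest, median and highest P.T.ATBx library, against 3.77, 4.91 and 6.25 FPKM in Control. The Control median exceeded 7 of the P.T.ATBx libraries, while the highest value of all 20 was also in P.T.ATBx. Its log2 fold change was -0.05 (SE 0.09, 95% interval -0.24 to 0.14, limma adjusted p = 0.844).

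Fdps makes farnesyl diphosphate, the branch point between sterols and protein prenylation. It had 71.8, 83.2 and 115 FPKM in the lowest, median and highest P.T.ATBx library, against 78.9, 93.0 and 134 FPKM in Control. The Control median exceeded 9 of 10 values in P.T.ATBx, and the exception was P.T.ATBx 2. Means were 83.9 ± 11.9 FPKM in P.T.ATBx and 96.8 ± 17.1 FPKM in Control (SD, n = 10 each). The log2 fold change was -0.20 (SE 0.09, 95% interval -0.38 to -0.01), with an unadjusted p of 0.0371 and a limma adjusted p of 0.329, and the group accounted for 19.4% of its variance. It did not pass the threshold. Fdps shares 104 bases with the small nuclear RNA gene Gm22935, which was not analysed here. Without P.T.ATBx 2 the log2 fold change was -0.25 (limma adjusted p = 0.142), and with the mean of the proliferation genes as a covariate it was -0.02 (limma adjusted p = 0.959). Its unadjusted limma p was 0.0647 after rescaling each library to a common sum (TPM scale).

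In the squalene segment the group means were close relative to the spread. Fdft1, squalene synthase, which commits farnesyl diphosphate to sterols, had 16.5, 17.3 and 25.3 FPKM in the lowest, median and highest P.T.ATBx library, against 15.6, 17.9 and 23.1 FPKM in Control. Its log2 fold change was -0.02 (SE 0.07, 95% interval -0.17 to 0.13, limma adjusted p = 0.949). By RefSeq coordinates, Fdft1 shares 774 bases with the cathepsin gene Ctsb, which averaged 222 ± 22.2 FPKM in P.T.ATBx and 210 ± 10.5 FPKM in Control (SD, n = 10 each); whether counting used strand is not stated, so reads there cannot be told apart. Sqle, the oxygen-dependent squalene epoxidase, had 30.0, 32.8 and 53.4 FPKM in the lowest, median and highest P.T.ATBx library, against 29.7, 33.0 and 45.8 FPKM in Control. The Control median again divided the P.T.ATBx libraries evenly. Its log2 fold change of -0.00 was the smallest of the 8 (SE 0.09, 95% interval -0.20 to 0.19, limma adjusted p = 0.990). Lss, which folds epoxidised squalene into lanosterol, had 9.92, 12.5 and 17.0 FPKM in the lowest, median and highest P.T.ATBx library, against 9.25, 13.5 and 18.9 FPKM in Control. Both extremes of all 20 libraries were Control libraries, and the Control median exceeded 8 of 10 values in P.T.ATBx. The log2 fold change of Lss was -0.13 (SE 0.09, 95% interval -0.33 to 0.06, limma adjusted p = 0.592), and -0.08 without Control 3. Lss shares 11269 bases with the long noncoding RNA gene 4930483K19Rik, which was listed at 0 in every library.

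In the sterol segment, Cyp51, which removes a methyl group from lanosterol, had 26.2, 29.6 and 43.1 FPKM in the lowest, median and highest P.T.ATBx library, against 28.3, 30.0 and 40.8 FPKM in Control. Of the P.T.ATBx libraries, 6 were below the Control median and 4 above. The log2 fold change was -0.06 (SE 0.08, 95% interval -0.22 to 0.11, limma adjusted p = 0.813). Dhcr7, the reductase of the last step of the pathway that ends through dehydrocholesterol, had 7.05, 8.30 and 10.0 FPKM in the lowest, median and highest P.T.ATBx library, against 7.28, 9.28 and 11.8 FPKM in Control. Again 9 of 10 values in P.T.ATBx were under the median of Control, with P.T.ATBx 2 the exception. Means were 8.25 ± 0.768 FPKM in P.T.ATBx and 9.24 ± 1.19 FPKM in Control (SD, n = 10 each). The log2 fold change was -0.14 (SE 0.06, 95% interval -0.27 to -0.01), with an unadjusted p of 0.0319 and a limma adjusted p of 0.313, and the group accounted for 21.7% of its variance. Dhcr7 did not pass the threshold with all libraries. Without Control 1, Control 3 and P.T.ATBx 2, a choice made after the data were seen, its log2 fold change was -0.17 with a limma adjusted p of 0.0472, and all 8 enzymes had values below 0. With the proliferation covariate the log2 fold change of Dhcr7 was -0.06 (unadjusted limma p = 0.375), and on the TPM scale it was -0.15 (unadjusted limma p = 0.112). It was -0.15 with Ptprc (unadjusted limma p = 0.0253) and -0.16 with the muscle, keratinocyte and adipocyte scores (unadjusted limma p = 0.0234). Neither passed the adjusted threshold.

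By level, averaged over all 20 libraries, the order was Fdps at 90.4 FPKM, Hmgcs1 at 73.4, Sqle at 35.0, Cyp51 at 31.4, Fdft1 at 18.3, Lss at 13.3, Dhcr7 at 8.74 and Idi1 at 4.87 FPKM. Neighbours kept this order in 20 of 20 libraries, with the exception of Sqle above Cyp51, which held in 19 of 20. Spread within the groups on the log2 scale, ranked among all tested rows, ran from the 55.9 percentile for Dhcr7 to the 83.9 percentile for Lss.

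Across libraries the enzymes varied together. After removal of each group's mean, a single axis carried 81.8% of the variance of the 8 genes, with the same sign for 8 of 8. That share was computed with all 20 libraries only, and not for other sets of genes. P.T.ATBx 2 was the highest of the 20 libraries, with the 8 enzymes on average 0.43 above the overall mean on the log2 scale; Control 6 was 0.35 above and Control 3 was 0.33 above. The remaining 17 libraries lay between -0.20 for P.T.ATBx 4 and 0.07 for Control 2. In each of the 3 high libraries, all 8 enzymes were among the top 4 of 20, and in P.T.ATBx 2 all 8 were the highest of their group. Group means of this deviation were -0.0354 ± 0.178 in P.T.ATBx and 0.0354 ± 0.173 in Control (SD, n = 10 each).

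**Figure D2:**
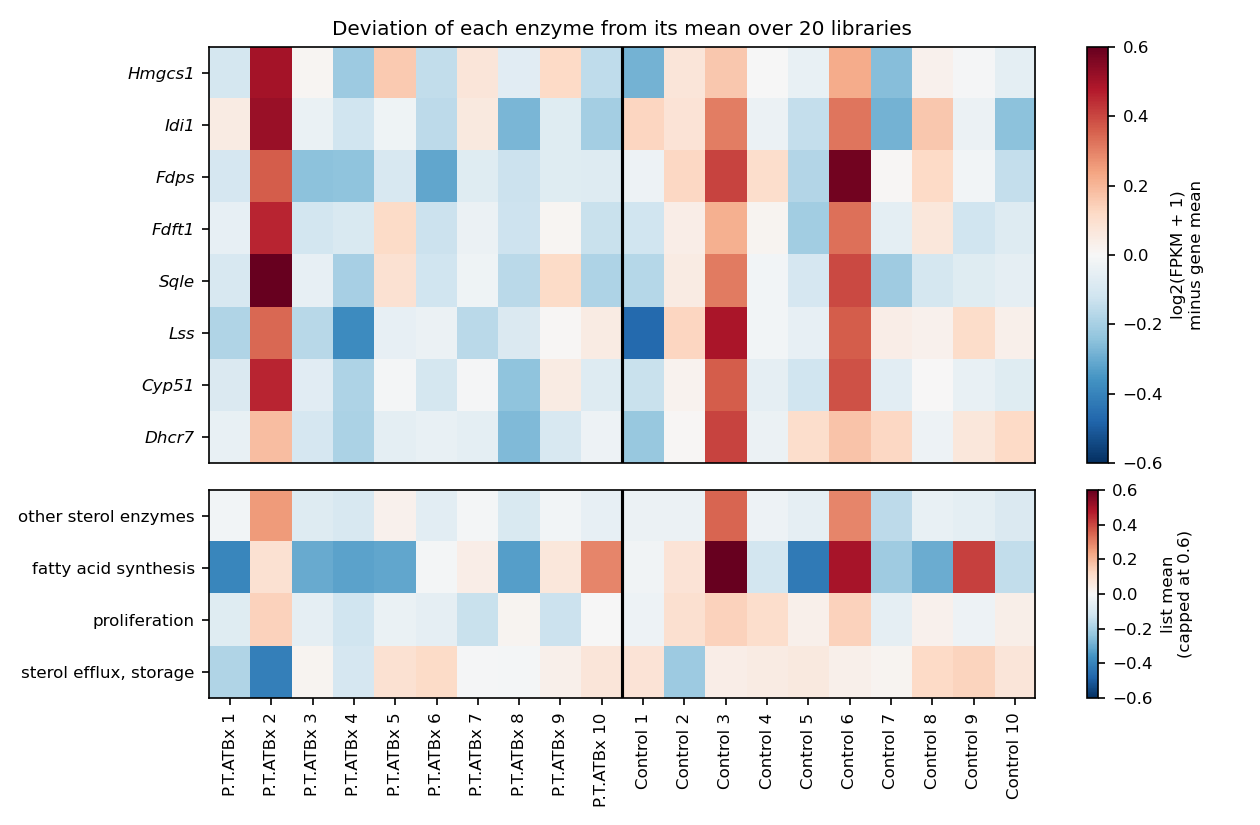
Deviation of each of the 8 enzymes from its mean over 20 libraries (upper panel) and the mean deviation of 4 companion lists (lower panel), in log2(FPKM + 1) units, with P.T.ATBx libraries left of Control libraries. Red is above the mean and blue below, and colours saturate at the ends of the scale. P.T.ATBx 2, Control 3 and Control 6 are high for all 8 enzymes.

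Several other measures are given for these 3 libraries, and their part in the result was not tested. The 13 other enzymes of the pathway averaged 0.25 above their overall log2 mean in P.T.ATBx 2, 0.35 above in Control 3 and 0.30 above in Control 6. The 12 proliferation genes averaged 0.14 above in each of the 3. They also averaged 0.10 above in Control 4 and in Control 2, where the 8 enzymes were at -0.005 and 0.07. Adipocyte markers, all 8 of them tested, summed to 356 FPKM in P.T.ATBx 2, inside the P.T.ATBx range of 103 to 904 FPKM, against 3699 FPKM in Control 3 and 1016 FPKM in Control 6, in a Control range of 67.6 to 3699 FPKM. The 12 genes of fatty acid synthesis averaged 0.09 above their overall log2 mean in P.T.ATBx 2, against 1.41 above in Control 3 and 0.49 above in Control 6. Macrophage markers, all 8 of them tested, summed to 1122 FPKM in P.T.ATBx 2, the lowest value of the 20 libraries, against 1336 FPKM in Control 3 and 1635 FPKM in Control 6. Adipocyte markers also summed to 1438 FPKM in Control 1, where the 8 enzymes were at -0.16. They summed to 967 FPKM in Control 9 and 904 FPKM in P.T.ATBx 7, where the 8 enzymes were at -0.01 and -0.03.

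Pairs of enzymes were correlated within each group on the log2(FPKM + 1) scale (28 pairs a group, 56 in the family, two-sided permutation tests with Benjamini-Hochberg adjustment). In P.T.ATBx, Pearson's r had a median of 0.846 (0.581 to 0.968) and Spearman's rho a median of 0.612, and 27 pairs passed by r and 7 by rho. In Control the median r was 0.757 (0.155 to 0.972) and the median rho 0.709, and 21 pairs passed by r and 8 by rho. The closest pair in P.T.ATBx was Fdft1 with Sqle, neighbours in the pathway (r = 0.968, permutation adjusted p = 0.00399; rho = 0.830, adjusted p = 0.0250). In Control it was Fdps with Fdft1, also neighbours (r = 0.972, permutation adjusted p = 0.00224; rho = 0.952, adjusted p = 0.00392). The loosest pair was Idi1 with Lss in P.T.ATBx (r = 0.581, permutation adjusted p = 0.116) and Idi1 with Dhcr7 in Control (r = 0.155, permutation adjusted p = 0.683).

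On the log2(FPKM + 1) scale these relations were weaker in P.T.ATBx without P.T.ATBx 2, and in Control they changed with the libraries left out. Without the 2 libraries farthest from the median of the first gene of each pair, the median r was 0.413 (-0.324 to 0.907) in P.T.ATBx and 0.549 (-0.366 to 0.974) in Control. Such a cut narrows the range of a gene, which can lower r whichever libraries carry the relation. It can also remove low libraries, for Hmgcs1 in Control those at 59.7 and 60.8 FPKM (Control 1 and Control 7). Fdps with Fdft1 in Control then had r = 0.890, and Fdft1 with Sqle in P.T.ATBx had r = 0.814. Without P.T.ATBx 2 alone, 4 of the 28 pairs passed in P.T.ATBx, where the median r was 0.452. Without Control 1 and Control 3, 16 pairs passed in Control, where the median r was 0.809 over 8 libraries. Without P.T.ATBx 2, Control 6, Control 1 and Control 3, 1 pair passed in P.T.ATBx and 0 in Control, where the median r was 0.346 over 7 libraries. By Spearman's rho, 1 pair passed in P.T.ATBx and 0 in Control without those 4 libraries. Control 1 was not a high library, with the 8 enzymes at -0.16. Leaving out only the 3 high libraries was not run. On the TPM scale the median r was higher, at 0.904 in P.T.ATBx and 0.856 in Control, and 15 and 21 pairs passed by rho. Without the 2 farthest libraries on that scale the median r was 0.672 in P.T.ATBx and 0.748 in Control. That scale divides all genes of a library by the same sum, and r of other gene pairs on it was not computed. Leaving out P.T.ATBx 2 or the 4 libraries was run on the log2(FPKM + 1) scale only. How far the correlations on the TPM scale rest on those libraries is therefore not known.

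Other genes were ranked by likeness, the mean Pearson r with the 8 enzymes over the 20 libraries with group means removed; all points share the same libraries, and no test was made. Cyp51 had the highest likeness to its fellow enzymes at 0.867 and Dhcr7 the lowest at 0.640. Among the 10 most similar genes outside the 8 were Mcc (0.805), Fads1 (0.799), Msmo1, listed as Sc4mol (0.785), Hsd17b7 (0.779), Nsdhl (0.777), Cyb5b (0.761), Acat2 (0.750) and Sema3c (0.741). Of the 10, 6 are themselves enzymes of cholesterol synthesis; among them Acat2 forms acetoacetyl-CoA, and Msmo1, Nsdhl and Hsd17b7 act in turn on the methyl groups of the sterol ring. Fads1 is a desaturase of polyunsaturated fatty acids and Sema3c a secreted semaphorin. Of the 13 other pathway enzymes, 8 were among the top 100 of 12788 rows, and their median likeness was 0.645, against -0.00936 over all tested rows. Without P.T.ATBx 2, 5 of the 10 most similar genes were pathway enzymes; without P.T.ATBx 2, Control 6, Control 1 and Control 3, 1 of 10 was, and Insig1 ranked first.

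**Figure D3:**
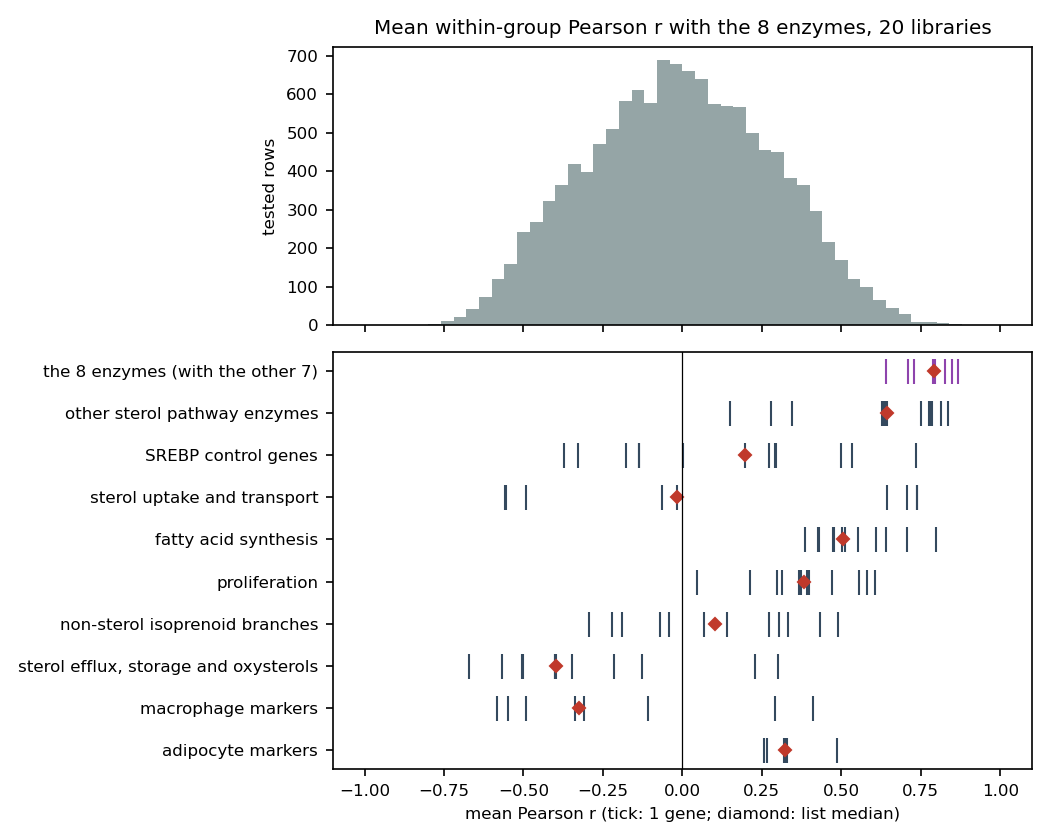
Likeness to the 8 enzymes, as mean Pearson r over 20 libraries with group means removed, as a histogram of all 12788 tested rows (upper panel) and by gene list (lower panel), where a tick is a gene and a diamond the list's median. The other pathway enzymes lie towards 1, with a median of 0.645, and genes of sterol efflux, storage and oxysterols lie mostly below 0, with a median of -0.399, which was -0.137 without P.T.ATBx 2.

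Among control genes, Insig1, the sterol-responsive anchor that holds Scap in the endoplasmic reticulum, had a likeness of 0.734 (rank 19), Srebf2 of 0.535 (rank 339) and Srebf1 of 0.292 (rank 2109). Apoe, the apolipoprotein that macrophages release with exported sterol, had -0.673, but -0.404 without P.T.ATBx 2 and 0.0544 without P.T.ATBx 2, Control 6, Control 1 and Control 3. Ch25h, which makes an oxysterol that restrains SREBP processing, had -0.402, and -0.163 without those 4 libraries. The macrophage markers had a median likeness of -0.324 and the proliferation genes of 0.383, and without P.T.ATBx 2 alone these medians were -0.0808 and 0.183. Without the 4 libraries the medians of the efflux list, the macrophage markers and the proliferation genes were 0.0154, 0.0114 and -0.0346.

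The rest of the pathway did not differ between the groups beyond the threshold either. Of 13 other enzymes of sterol synthesis, 0 were called, with 3 log2 fold changes above 0, 10 below and a median of -0.03. The smallest unadjusted p in that list belonged to Mvd, the decarboxylase that makes isopentenyl diphosphate, with a log2 fold change of -0.08 (SE 0.06, limma adjusted p = 0.641). Acat2 had a log2 fold change of -0.08 (limma adjusted p = 0.780) and the sterol reductase Lbr of -0.03 (limma adjusted p = 0.819).

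**Figure D4:**
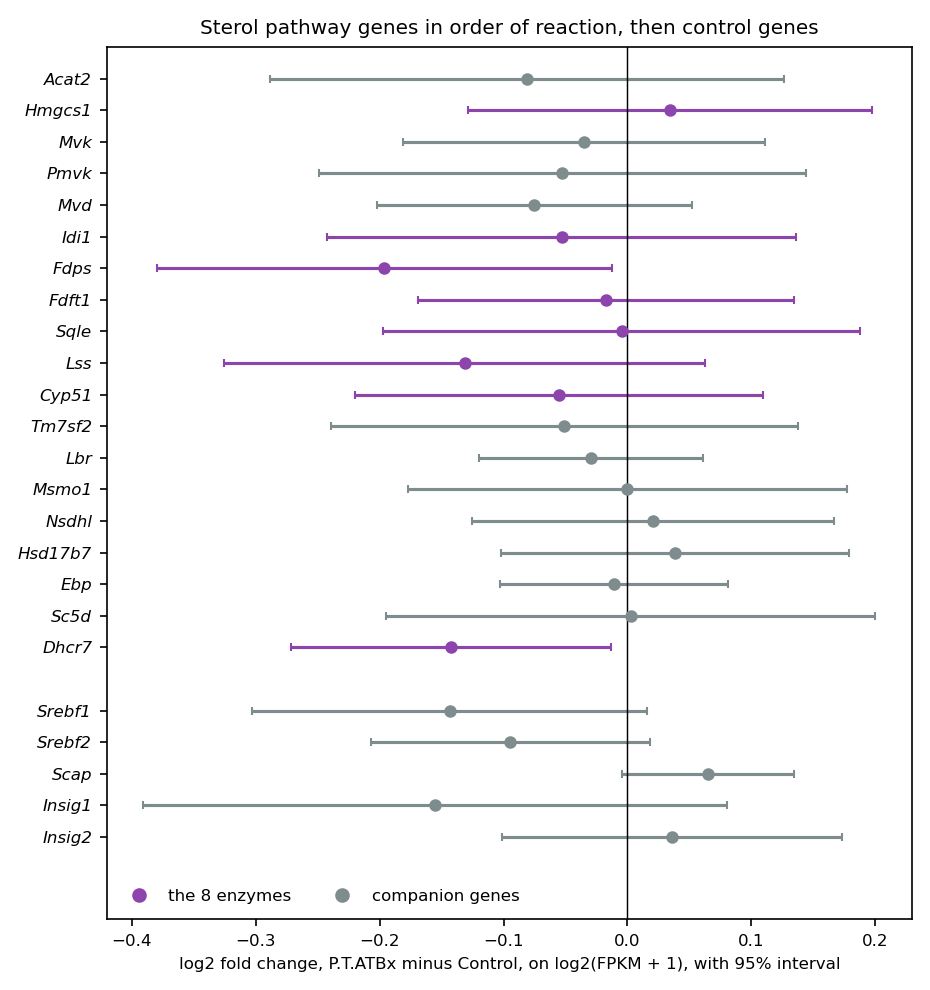
Log2 fold change in log2(FPKM + 1) units, positive where P.T.ATBx is higher, with its 95% interval for pathway enzymes in the order of the reactions and for control genes below them; the 8 enzymes described are in purple. Intervals of Fdps and Dhcr7 end just below 0 and those of the other 6 include 0; with adjustment over 12788 rows 0 of the genes shown were called.

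Of 13 control genes of the SREBP system, 0 were called, with 7 log2 fold changes above 0, 6 below and a median of 0.02. Srebf2 averaged 24.4 ± 2.40 FPKM in P.T.ATBx and 26.1 ± 1.96 FPKM in Control (SD, n = 10 each, here and for the companion genes that follow; log2 fold change -0.09, limma adjusted p = 0.467). Srebf1 averaged 22.4 ± 2.78 FPKM in P.T.ATBx and 24.9 ± 3.63 FPKM in Control (log2 fold change -0.14, limma adjusted p = 0.426). Both encode the transcription factors themselves. Insig1 averaged 33.3 ± 5.31 FPKM in P.T.ATBx and 37.7 ± 9.47 FPKM in Control (log2 fold change -0.16, limma adjusted p = 0.604), its Control range reaching 60.4 FPKM in Control 3. The log2 fold change of Insig1 was -0.08 without Control 3 and -0.01 with the proliferation covariate. Scap averaged 24.9 ± 0.894 FPKM in P.T.ATBx and 23.7 ± 1.38 FPKM in Control (log2 fold change 0.06, limma adjusted p = 0.404).

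Genes around the pathway gave 0 calls in each list. Of 9 tested genes of sterol uptake and transport, 3 log2 fold changes were above 0 and 6 below, with a median of -0.02. The lysosomal cholesterol transporter Npc1 had a log2 fold change of 0.13, the lysosomal lipase Lipa 0.09, Mylip, a ubiquitin ligase, 0.18 and the receptor Lrp8 -0.16, with limma adjusted p-values from 0.330 to 0.406. Of 12 tested genes of efflux, storage and oxysterols, 3 were above 0 and 9 below, with a median of -0.09, and Soat2 was under the filter.

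Ch25h averaged 12.4 ± 2.49 FPKM in P.T.ATBx and 17.0 ± 5.12 FPKM in Control (log2 fold change -0.39, SE 0.16, limma adjusted p = 0.287), with 10 of 10 values in P.T.ATBx under the median of Control. Apoe averaged 1525 ± 240 FPKM in P.T.ATBx and 1260 ± 110 FPKM in Control (log2 fold change 0.26, SE 0.09, limma adjusted p = 0.187). Without P.T.ATBx 2 the log2 fold change of Apoe was 0.34 with a limma adjusted p of 0.00262; with arrayWeights, which weights the libraries and leaves none out, it was 0.30 (limma adjusted p = 0.0280), and with the proliferation covariate 0.08 (limma adjusted p = 0.811). Hsd3b7, an enzyme of bile acid synthesis, had a log2 fold change of -0.19 and Nr1h3, the oxysterol receptor LXR alpha, of -0.29; the smaller limma adjusted p of the pair was 0.184.

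All 12 genes of fatty acid synthesis had log2 fold changes below 0, with a median of -0.20, and 0 were called. The 8 adipocyte markers also had 8 log2 fold changes below 0, with a median of -0.43 and 0 called. Control 3 was the highest library in the summed level of both lists (2197 FPKM and 3699 FPKM). Adipocyte markers entered a fit only together with muscle and keratinocyte scores, as covariates, and their own part in the result was not tested. Fasn, fatty acid synthase, averaged 60.0 ± 14.9 FPKM in P.T.ATBx and 88.5 ± 53.4 FPKM in Control (limma adjusted p = 0.429), with 227 FPKM in Control 3. Acly, Acaca and Acss2, which supply and carboxylate acetyl-CoA, had log2 fold changes of -0.17, -0.29 and -0.44, with limma adjusted p-values from 0.414 to 0.609. Without Control 3 alone these became -0.10, -0.15 and -0.20, and that of Fasn -0.26, against -0.43 with all libraries. Of 12 genes of the non-sterol isoprenoid branches, which draw on farnesyl diphosphate, 6 were above 0 and 6 below. The prenyltransferase subunits Pggt1b, Rabggta, Fntb and Rabggtb had log2 fold changes of 0.12, -0.13, -0.09 and 0.07, with limma adjusted p-values from 0.246 to 0.330.

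All 12 proliferation genes also had log2 fold changes below 0, with a median of -0.09, and 0 were called. The smallest adjusted p belonged to Aurkb, a mitotic kinase, at 31.2 ± 1.63 FPKM in P.T.ATBx and 35.0 ± 2.45 FPKM in Control (log2 fold change -0.16, limma adjusted p = 0.0608). Top2a, Mcm5 and Plk1, genes of DNA replication and mitosis, had log2 fold changes of -0.17, -0.11 and -0.10, with limma adjusted p-values from 0.209 to 0.433. With the mean of the proliferation genes as a covariate, the median log2 fold change of the 8 enzymes was 0.09, with 6 above 0 and 2 below, and 0 were called; its sign was thus opposite to that without the covariate. In the same fit Mylip was at -0.00, Lrp8 at 0.03, Ch25h at -0.61 (limma adjusted p = 0.126) and Hsd3b7 at -0.30 (limma adjusted p = 0.0238).

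Within libraries, some ratios between the 8 enzymes differed between the groups when all libraries were used. The share of ratios that would pass among other gene pairs was not computed. FPKM of 1 enzyme was divided by that of another in the same library, for all 28 pairs, a comparison chosen after the data were seen; the log2 ratios were compared by two-sided permutation tests with 100000 resamples and adjusted over the 28. Of the 28 ratios 4 passed, and all 4 had Fdps as numerator and a lower value in P.T.ATBx. Sharing Fdps, which had an unadjusted limma p of 0.0371 above, the 4 are not independent of each other. A ratio shows unequal change of 2 genes and not which of them changed, and scaling of the library cancels from it.

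Fdps over Fdft1, the enzymes before and after the branch point, was 4.21, 4.58 and 5.11 in the lowest, median and highest P.T.ATBx library, against 4.70, 5.20 and 5.77 in Control. All 10 values in P.T.ATBx were under the median of Control, although the ranges overlapped. Means were 4.61 ± 0.274 in P.T.ATBx and 5.23 ± 0.291 in Control (SD, n = 10 each), a log2 difference of -0.18 (permutation p = 0.00022, adjusted p = 0.00616). This ratio includes Fdft1, which overlaps Ctsb as given above; Ctsb had a log2 fold change of 0.07 (limma adjusted p = 0.579).

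Fdps over Hmgcs1 averaged 1.13 ± 0.0889 in P.T.ATBx and 1.34 ± 0.151 in Control (SD, n = 10 each), a log2 difference of -0.23 with all 10 values in P.T.ATBx under the median of Control (permutation p = 0.00214, adjusted p = 0.0236). Fdps over Sqle averaged 2.42 ± 0.212 in P.T.ATBx and 2.77 ± 0.208 in Control, a log2 difference of -0.19 (permutation p = 0.00268, adjusted p = 0.0236). Fdps over Cyp51 averaged 2.74 ± 0.181 in P.T.ATBx and 3.02 ± 0.177 in Control, a log2 difference of -0.14 (permutation p = 0.00337, adjusted p = 0.0236). For the Sqle and Cyp51 ratios, 9 of 10 values in P.T.ATBx were under the median of Control. Fdps over Idi1 (permutation adjusted p = 0.186), over Lss (0.596) and over Dhcr7 (0.700) did not pass. Without Control 1 and Control 3, Fdps over Fdft1 passed and the other 3 ratios had permutation adjusted p = 0.0563, with log2 differences of -0.20 for Hmgcs1, -0.19 for Sqle and -0.14 for Cyp51, close to those with all libraries; without P.T.ATBx 2 as well, Fdps over Fdft1 again passed and the other 3 had 0.0991. Without Control 1 alone, 9 of the 28 ratios passed.

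**Figure D5:**
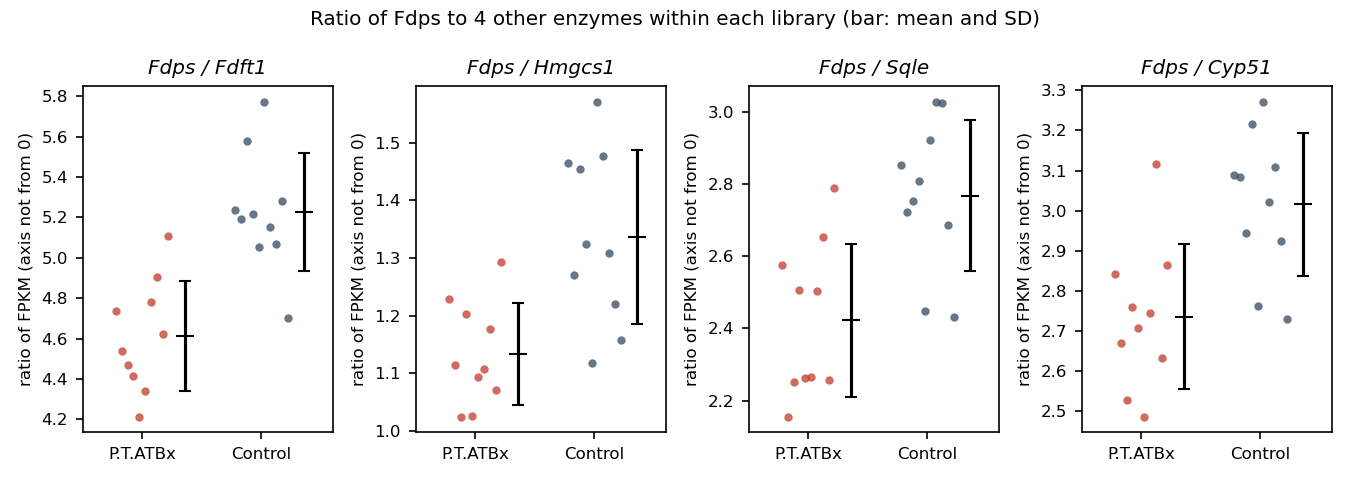
Ratio of Fdps FPKM to that of 4 other enzymes in the same library, with P.T.ATBx left of Control; points are libraries, bars give the mean and SD (n = 10 each), and the axes do not start at 0. All P.T.ATBx points lie under the median of Control for Fdps over Fdft1 and Fdps over Hmgcs1, and 9 of 10 do so for the other 2 ratios.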

How the data were processed

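RNA of MC38 tumours in 20 libraries (10 P.T.ATBx and 10 Control libraries, grouped by title) was extracted with a column kit and sequenced from stranded total RNA libraries, per the labels' protocols. The authors deposited 1 table of FPKM per gene; per the submitters' processing notes the genome build was mm10, the same assembly as GRCm38. The aligner, the counter and its use of strand were not given in the sources used here. Of 23402 rows, 4814 were at 0 in every library. Values were analysed as log2(FPKM + 1), a scale that understates changes of low genes, for the 12788 rows with a mean of at least 0.5 FPKM. Group was the only term in limma 3.58.1 (R 4.3.3) with robust and trended moderation, two-sided, with Benjamini-Hochberg adjustment over all tested rows and a threshold of 0.05; the fit was tested on simulated data. FPKM gives no read totals, so no counting interval was made. Permutation tests used 100000 resamples (scipy 1.17.1, numpy 2.4.6). A library stood apart where its median correlation with the others lay more than 3 median absolute deviations under the median of all libraries.

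The 8 enzymes and all companion lists were chosen with earlier results of these data known. Named were the 8 enzymes, Srebf1, Srebf2, Insig1 and Ch25h, up to 4 genes of smallest unadjusted p and any called gene in each pathway list, and the 10 genes of highest likeness; some genes that this rule names are not reported here, while counts and medians of lists include them. Of the cell marker lists 1 gene was called, the fibroblast gene Dcn, with 543 ± 39.5 FPKM in P.T.ATBx and 672 ± 40.1 FPKM in Control (SD, n = 10 each; log2 fold change -0.31, limma adjusted p = 0.00125). Alternatives were other pseudocounts, filters, scalings, moderation and weights, covariates, a replicate block, and libraries left out. The labels do not state whether replicate numbers pair the libraries. Same-numbered libraries correlated above 0.1 in 5 of 10 pairs, which does not settle it.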

Additional observations from a re-analysis of the deposited data

Results flagged for a closer look

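In P.T.ATBx 2, 7 of the 8 enzymes lay apart from the other P.T.ATBx libraries by Dixon's criterion at 95%: Hmgcs1 at 103 FPKM, Idi1 at 7.32, Fdps at 115, Fdft1 at 25.3, Sqle at 53.4, Cyp51 at 43.1 and Dhcr7 at 10.0 FPKM. The gap to the nearest library was 0.478 to 0.644 of the group's range, against a critical value of 0.466. These were 7 of 16 tests of a gene in a group. Chance alone puts about 1 in 20 groups past that value, and the 8 genes vary together, so the 7 are not independent. P.T.ATBx 2 was also the lowest of the 20 libraries in summed macrophage markers (1122 FPKM), in T cell markers (20.5 FPKM) and in the leukocyte gene Ptprc (28.2 FPKM), whose part in its enzyme levels was not tested. It did not stand apart from the other libraries over the whole table.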

How the results depend on the processing

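The count of 0 enzymes called held under all alternatives run except 1: without Control 1, Control 3 and P.T.ATBx 2 it was 1. The median log2 fold change of the enzymes ran from -0.11 without P.T.ATBx 2 to 0.09 with the proliferation covariate. Calls over the whole table, 108 in the main analysis (59 higher, 49 lower), were 49 on the TPM scale (20 higher, 29 lower), 306 with arrayWeights, 221 with Ptprc as a covariate and 226 without Control 1, Control 3 and P.T.ATBx 2. Leaving out 1 library at a time gave 69 (without P.T.ATBx 4) to 193 (without Control 1). The 0 calls in companion lists became 1 with quantile normalization, 3 with arrayWeights, 1 with Ptprc, 1 with the proliferation covariate, 1 without Control 1 and Control 3, and 3 without those and P.T.ATBx 2, and 0 to 2 with 1 library left out; the genes were Aurkb, Top2a, Apoe and Hsd3b7. Replicate number as a block gave 124 calls over the table, 0 enzymes and 0 companion genes. In that fit the unadjusted limma p of Fdps was 0.0717. Whether the numbers pair the libraries is not stated in the labels (r of same-numbered libraries -0.315 to 0.393). Of 10 P.T.ATBx libraries, 4 correlated best with the Control library of their own number. No block was run for the ratios and correlations, and the ratio tests treat the libraries as unpaired. Enzyme pairs called by r in P.T.ATBx, 27 with all libraries, were 4 without P.T.ATBx 2 and 1 without P.T.ATBx 2, Control 6, Control 1 and Control 3; in Control they were 21 with all libraries and 0 without those 4; median r without the 2 farthest libraries was 0.413 in P.T.ATBx and 0.549 in Control. Of the 10 most similar genes 1 was a pathway enzyme without those 4 libraries. Ratios called were 1 without Control 1 and Control 3, 1 without P.T.ATBx 2 as well, and 4 to 9 with 1 library left out. The cause of these shifts was not tested. Absolute depth per library is unknown.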
